A study of Homo sapiens with 2 samples.

Results

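The oncofetal liver cancer marker genes examined here were AFP, GPC3, IGF2, H19, DLK1 and SPINK1. Their members were the exon rows that lie, on the gene's strand, inside 6 genomic windows on hg19, which gave 52 of the 239322 exon rows listed for each library. Huh-7 cells, a human hepatocellular carcinoma line at passages 15 to 20, were exposed to 0.1 mM BS008, an amiloride derivative, or to 0.1% DMSO as the control, each for 24 h. RNA was sequenced from 1 library of each condition, so no difference here has a replicate check and no test was made. The treatment characteristic of each sample separates the conditions, while the protocol text names BS008 for both. No DMSO percentage is given for the BS008 sample, so whether the vehicle was matched cannot be checked.

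Oncofetal genes are active in fetal liver, are largely silenced after birth and return in many hepatocellular carcinomas. AFP encodes the main plasma protein of the fetus and is a relative of albumin, and GPC3 encodes a heparan sulfate proteoglycan of the cell surface. IGF2, a fetal growth factor, and H19, a noncoding RNA, are imprinted neighbors read from opposite parental copies. DLK1, a membrane protein of the Notch ligand family, marks hepatoblasts, and SPINK1 is a secreted trypsin inhibitor.

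Reads counted on all exon rows summed to 55476654 under DMSO and 53578432 under BS008. A level is given as gene RPKM, the reads on all rows of a gene scaled to the bases these rows cover and to the library total, with its exact 95% Poisson interval. A fold is the ratio of counts scaled to the library total (CPM), BS008 to control, with an exact binomial (Clopper-Pearson) 95% interval. Both intervals cover counting error only. The log2 ratio was taken after adding 0.5 to each CPM value, and a gene or row was called changed when this ratio was past 2-fold.

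Hepatocyte genes were read in both libraries. ALB, which encodes albumin, stood at 2164 under DMSO and 2521 under BS008, as gene RPKM. APOB, the structural protein of very low density lipoprotein, stood at 611 and 282, APOA1 of high density lipoprotein at 547 and 417, and TTR, a thyroid hormone carrier, at 11.1 and 7.84. The leukocyte marker PTPRC had 0 reads in both libraries, and the fibroblast marker COL1A1 had 14 and 6 reads. In RNA from a whole culture, fewer cells of a type and less RNA per cell cannot be told apart.

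The 6 genes covered more than 3 orders of magnitude and did not move as a group. SPINK1 rose 5.22-fold (4.51 to 6.06) and IGF2 fell 2.69-fold, while AFP, GPC3, H19 and DLK1 stayed within 2-fold. Under DMSO the order of levels was AFP, IGF2, DLK1, SPINK1, GPC3 and H19. The intervals of DLK1 and SPINK1 overlapped there, and those of the other neighbors in this order did not. Under BS008 SPINK1 stood above DLK1, with intervals that did not overlap, and the rest of the order was the same. The place of GPC3 in both orders rests on reads from 3 of its 10 rows, as the other 7 were empty.

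Of the 52 rows, 43 had a read in either library and 37 had at least 10 counts in either. Among these 37 rows, 4 were past 2-fold higher and 5 past 2-fold lower under BS008. Over all 131330 rows with at least 10 counts, 3.73% were past 2-fold higher and 3.79% past 2-fold lower. The 4 higher rows were the whole of SPINK1 and the 5 lower rows all lay in IGF2, so each set comes from 1 gene and its rows are not independent. Among the 5 lower rows, those of 149 and 158 bases overlap and hold the same reads, 2619 under DMSO and 997 under BS008. The tally of 5 therefore holds these reads more than once. The median log2 ratio of the 37 rows was -0.42, beside -0.04 for all rows, and 15 of the 37 rows belong to AFP.

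**Figure D1:**
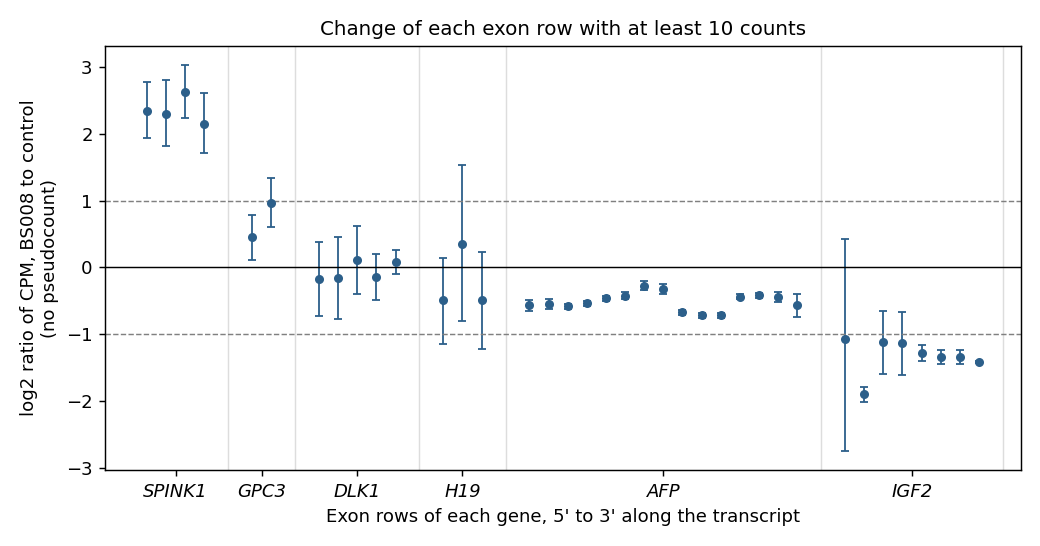
The log2 ratio of CPM, BS008 to control, without a pseudocount, for each exon row with at least 10 counts, ordered 5' to 3' within each gene; bars are exact 95% binomial counting intervals and dashed lines mark 2-fold. The 4 SPINK1 rows lie above the upper line, the 15 AFP rows lie between 0 and the lower line, and the 8 IGF2 rows lie below the lower line, 5 of them also with the pseudocount.

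SPINK1 was read on all 4 of its rows, which span 147204143 to 147211260 of chromosome 5 (hg19, minus strand). Its rows summed to 219 reads under DMSO and 1104 under BS008, a log2 ratio of 2.25. From the 5' to the 3' end, the rows had 58, 44, 65 and 52 reads under DMSO. The same rows had 285, 209, 387 and 223 reads under BS008. Each row was thus higher under BS008, by 4.44-fold (3.27 to 6.13) on the last and by 6.16-fold (4.73 to 8.15) on the third row, of 107 bases. The share of the gene's reads on that row went from 29.7% (24.0 to 36.0%) to 35.1% (32.3 to 37.9%), the largest shift in SPINK1, and these Wilson 95% intervals overlap. The log2 ratio of 2.25 is that of a gene sum. It was above that of 98.7% of the 10544 single rows with at least 1000 counts, of which 6.22% were past 2-fold higher. No SPINK1 row reached 1000 counts, and the sum did so only under BS008. This rank is therefore not one among rows of like depth.

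The 250 bases before the RefSeq starts of SPINK1 and AFP are shown because they lie in front of the gene with the largest increase and the gene with the highest level. They are on GRCh38.p14, another build than the counts, at chr5:147831672-147831921 on the minus strand and chr4:73435971-73436220 on the plus strand. Capitals mark every match, on either strand, to a TATA box core (TATAAA), a core of the site of the liver factor HNF1 (GTTAA) or an AP-1 core (TGANTCA).
SPINK1: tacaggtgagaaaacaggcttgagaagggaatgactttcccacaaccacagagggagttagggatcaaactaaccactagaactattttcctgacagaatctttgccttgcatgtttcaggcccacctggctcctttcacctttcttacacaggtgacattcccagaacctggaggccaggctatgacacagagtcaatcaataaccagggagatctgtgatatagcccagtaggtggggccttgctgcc
AFP: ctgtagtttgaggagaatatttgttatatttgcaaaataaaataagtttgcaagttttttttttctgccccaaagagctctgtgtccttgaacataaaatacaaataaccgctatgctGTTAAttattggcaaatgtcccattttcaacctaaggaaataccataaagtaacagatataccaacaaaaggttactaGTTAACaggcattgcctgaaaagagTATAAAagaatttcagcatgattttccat
In the AFP sequence the TATA box core begins at position -29 from the start, and HNF1 cores begin at positions -132, -54 and -53, the last pair overlapping on opposite strands. No letters of the SPINK1 sequence matched any of the 3 motifs. Over the 35116 promoters of the same length in the table, 10.7% held TATAAA, 19.8% held GTTAA and 6.57% held TGANTCA. The table held promoters of 3 of the 6 genes, the third being H19.

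IGF2 was read across 2150348 to 2170833 of chromosome 11 (minus strand), on 13 rows that summed to 92033 reads under DMSO and 33100 under BS008. The log2 ratio was -1.42, and the fold was 0.372 (0.368 to 0.377). Only 2.78% of the single rows with at least 1000 counts had a lower log2 ratio than this gene sum. Of these single rows, 9.44% were past 2-fold lower. The last row, 4106 bases long, held 88.5% of the gene's reads under DMSO and 88.8% under BS008, with 81408 and 29405 reads. The sum is therefore close to the value of this row.

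IGF2 is transcribed from several promoters, each with its own first exon joined to the same coding exons. A row of 746 bases, the length of the first exon of 1 GENCODE transcript of IGF2, had 3284 reads under DMSO and 850 under BS008. Its log2 ratio of -1.87 was the lowest of the gene, and its fold was 0.268 (0.248 to 0.289). The row of 163 bases, the length of an exon that 9 GENCODE transcripts of IGF2 contain, had 1833 and 729 reads, a fold of 0.412 (0.377 to 0.449). The intervals of both folds are apart, and the 746-base row went from 3.57% (3.45 to 3.69%) to 2.57% (2.40 to 2.74%) of the gene's reads. The most distal 5' rows, of 478 and 220 bases, had 0 reads in both libraries, and the row of 242 bases after them had 2 and 4. Among IGF2 rows with at least 100 counts, the highest log2 ratio was -0.84, on a row of 97 bases with 126 and 56 reads.

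Rows that overlap count the same reads more than once. The IGF2 rows of 149 and 158 bases share their 3' end and both had 2619 reads under DMSO and 997 under BS008, so these reads entered the sum more than once. The gene RPKM of IGF2 used this sum, while shared bases were counted only once. Its level and interval therefore lie too high in both libraries. Without the 6 overlapping rows the log2 ratio of IGF2 was -1.43. On the other strand, a row from 2167475 to 2169894 had 61 and 35 reads. The library kit named in the labels does not mark strand, so reads of a gene and of a partner on the other strand cannot be told apart.

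H19, at 2016406 to 2019065 of chromosome 11 (minus strand), had the lowest level of the 6 genes. Its 5 rows had 54, 2, 8, 13 and 42 reads from 5' to 3' under DMSO. Under BS008 they had 37, 5, 7, 16 and 29 reads. The sums of 119 and 94 reads gave a fold of 0.818 (0.617 to 1.08) and a log2 ratio of -0.23, and a difference was not detectable at this depth. The share that moved most was that of the 123-base row, from 10.9% (6.50 to 17.8%) to 17.02% (10.8 to 25.9%). No H19 row reached 100 counts. The level of IGF2 was 254 (gene RPKM) under DMSO and that of H19 was 0.929.

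AFP had the highest level, a gene RPKM of 1178 under DMSO (1172 to 1185) and 806 under BS008 (801 to 811). Its 15 rows lie on the plus strand of chromosome 4 from 74301933 to 74321492 and summed to 133300 and 88052 reads. The level was 1.46-fold lower under BS008, with a log2 ratio of -0.55 that was not past 2-fold. Of single rows with at least 1000 counts, 24.1% had a lower ratio than this gene sum. All 15 rows were lower in the BS008 library, with log2 ratios from -0.72 to -0.27.

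The AFP rows did not move by equal amounts. The tenth row, of 98 bases and with 18543 reads under DMSO and 10894 under BS008, had a fold of 0.608 (0.594 to 0.623). The seventh row, of 130 bases and with 4040 and 3221 reads, had a fold of 0.826 (0.788 to 0.865). The tenth row thus went from 13.9% (13.7 to 14.1%) to 12.4% (12.2 to 12.6%) of the reads of the gene, the largest shift in AFP, and the ninth and eleventh rows also held smaller shares under BS008. The deposited RPKM of rows ranged from 87.5 on the last row to 3411 on the tenth under DMSO. The seventh and eighth rows stood at 560 and 325, below the rows on either side, and under BS008 they stood at 462 and 260. The gene body was therefore covered unevenly in both libraries, with the same rows high and low.

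**Figure D2:**
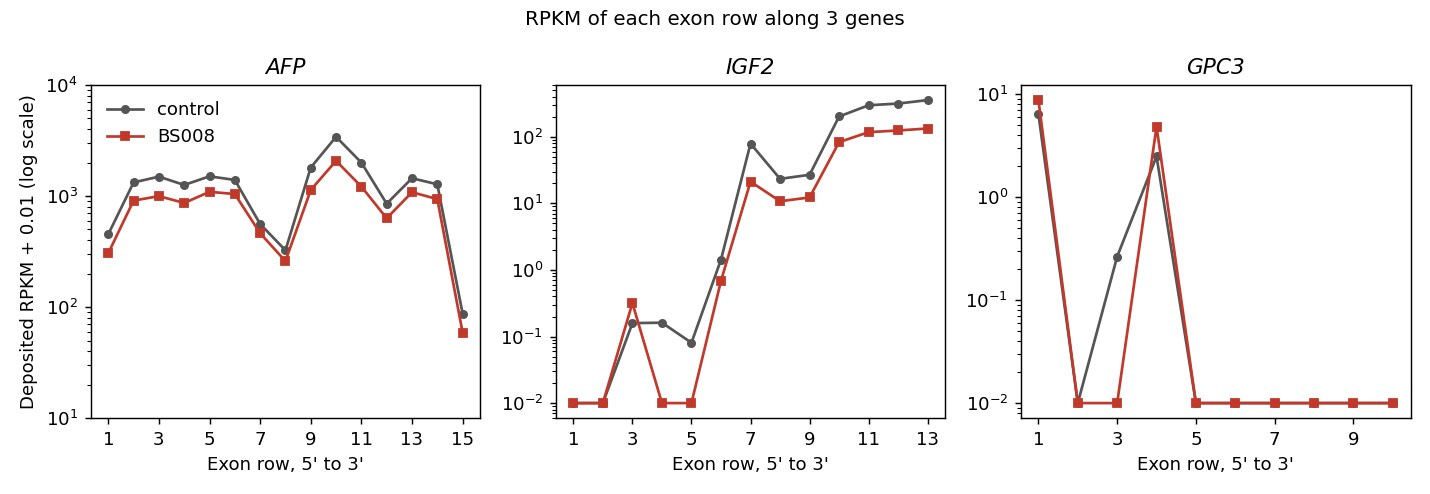
Deposited RPKM plus 0.01 (log axes, scaled for each gene) of each exon row of AFP, IGF2 and GPC3, ordered 5' to 3', in the control and BS008 libraries; a point at the foot of the IGF2 and GPC3 plots is a row with 0 reads. The AFP rows dip at the seventh and eighth row in both libraries, the reads of IGF2 lie toward the 3' end, and GPC3 has only 2 rows with RPKM above 1.

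ALB, the adult counterpart of AFP and its neighbor on chromosome 4, had 274038 reads under DMSO and 308359 under BS008. Its fold was 1.17 (1.16 to 1.17) and its log2 ratio 0.22. On the gene RPKM scale, AFP stood at 0.545 of the ALB level under DMSO and at 0.320 under BS008. AFM, a vitamin E-binding member of the same family next to AFP, had 106 and 34 reads, a fold of 0.332 (0.219 to 0.493) and a log2 ratio of -1.09. The 2 genes beside AFP thus lay on opposite sides of equality. The other hepatocyte genes read were lower under BS008, at folds of 0.461 (APOB), 0.707 (TTR) and 0.763 (APOA1). The fold of AFP was 0.684. The ratio to ALB therefore does not stand for AFP beside hepatocyte genes in general.

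GPC3, at 132669776 to 133119666 of the X chromosome (minus strand), had reads on 3 of its 10 rows. The first row, of 365 bases, had 129 reads under DMSO and 170 under BS008. The fourth row, of 703 bases, had 96 and 181 reads, a fold of 1.95 (1.52 to 2.53) and a log2 ratio of 0.80. The third row had 1 read and 0, and the other 7 rows, among them the second and all 6 after the fourth, had 0 reads in both libraries. A count of 0 allows up to 3 reads (a one-sided 95% limit, for counting error only), or 0.0541 CPM under DMSO and 0.0560 CPM under BS008. The sums of 226 and 351 reads gave a fold of 1.61 (1.36 to 1.91) and a log2 ratio of 0.62. The fourth row held 42.5% (36.2 to 49.0%) of these reads under DMSO and 51.6% (46.4 to 56.7%) under BS008. Because most rows were empty, this sum does not describe a whole transcript. Of the 10 rows, 5 had the exact length of a GPC3 exon in GENCODE, and all of these 5 were empty. The rows of 365 and 703 bases were within 10 bases of an annotated exon.

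DLK1, on the plus strand of chromosome 14 from 101193253 to 101201474, showed no difference larger than counting error between the libraries. Its 5 rows had 62, 51, 66, 150 and 498 reads from 5' to 3' under DMSO. The same rows had 53, 44, 69, 131 and 509 reads under BS008. The sums of 827 and 806 reads gave a fold of 1.01 (0.915 to 1.11) and a log2 ratio of 0.01. Among rows with at least 100 counts, log2 ratios were -0.12 and 0.08, and the last row went from 60.2% (56.8 to 63.5%) to 63.2% (59.8 to 66.4%) of the reads. MEG3, the imprinted noncoding RNA next to DLK1, had 1 read under DMSO and 0 under BS008 over 14 rows.

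For context, 16 partner genes were read in the same way, and 3 were past 2-fold lower and 0 past 2-fold higher. They cover locus neighbors, IGF2 receptors, proteins that bind IGF2 mRNA, other oncofetal or progenitor genes and repressors of AFP. Their median log2 ratio was -0.26. Among their 173 rows with at least 10 counts, 1 was past 2-fold higher and 17 lower, or 0.578% and 9.83%. Over all rows with at least 10 counts the shares were 3.73% and 3.79%. Of the 17 lower rows, 13 lay in IGF2BP3, so they are not independent. Rows carry no gene name, so no share of all genes past 2-fold was at hand. With a pseudocount of 0.1 in place of 0.5, the count of higher partners was 1, which was ZBTB20 (log2 ratio 1.21). With a pseudocount of 1, the count of lower partners was 2, as AFM stood at -0.83.

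The 3 IGF2 mRNA-binding proteins had lower counts under BS008 to different degrees. IGF2BP3 fell past 2-fold, with 5264 reads under DMSO and 1879 under BS008, a fold of 0.370 (0.350 to 0.390), and 13 of its 16 rows with at least 10 counts were past 2-fold lower. IGF2BP1 had 30784 and 16127 reads, a fold of 0.542 (0.532 to 0.553). IGF2BP2 had 15713 and 11120 reads, a fold of 0.733 (0.715 to 0.751). The intervals of the 3 genes are apart from each other.

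Of the receptors, IGF1R, which signals for IGF2, had a fold of 1.26 (1.21 to 1.31) with 4492 and 5464 reads. IGF2R, which clears IGF2 from the cell surface, had a fold of 0.714 (0.696 to 0.734) with 13507 and 9319 reads. Neither was past 2-fold. Thus the 2 receptor genes lay on opposite sides of equality.

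PEG10, an imprinted gene derived from a retrotransposon, fell past 2-fold, from 17534 to 7669 reads, a fold of 0.453 (0.441 to 0.465). LIN28B, which blocks maturation of let-7 microRNAs, had 8914 and 8820 reads, a fold of 1.02 (0.995 to 1.06). EPCAM, a surface protein of progenitor cells, had a fold of 0.967 (0.930 to 1.01). KRT19, a keratin of bile duct cells with pseudogene copies that may share reads, had a fold of 0.782 (0.736 to 0.831). The stem cell factor SALL4 had 241 and 178 reads, a fold of 0.765 (0.627 to 0.932).

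Of the AFP repressors, ZHX2 had 2295 and 1950 reads, a fold of 0.880 (0.828 to 0.935). ZBTB20 was barely read, with 26 and 65 reads over 22 rows, a fold of 2.59 (1.62 to 4.25) and a log2 ratio of 0.82 after the pseudocount. GPC4, a glypican next to GPC3, had 1659 and 2384 reads, a fold of 1.49 (1.40 to 1.59). Reads were found with at least 10 counts on 8 of the 10 GPC4 rows, against 2 of the 10 GPC3 rows.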

How the data were processed

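The authors deposited, for each library, raw counts of reads per exon row, each row identified by its coordinates and strand and by no gene. The authors also deposited RPKM values, which recomputation from the counts returned to within 1.8e-07 of their size. Per the labels the build is hg19. The aligner, counter and annotation are not given in the sources used here.

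Rows were assigned to genes by hg19 window and strand. Members, partner genes, windows and rules were chosen with earlier results of these data known. As a check, row lengths were set beside exon lengths of the same gene in GENCODE release 29 (GRCh38), without converting coordinates: 12 of 15 AFP rows, 5 of 10 GPC3, 8 of 13 IGF2, 4 of 5 H19, 3 of 5 DLK1 and 2 of 4 SPINK1 rows had the exact length of an annotated exon.

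Counts were summed over rows and scaled to the library total. Log2 ratios used a pseudocount of 0.5 CPM, and rows needed at least 10 counts in either library. Named rows were the highest and lowest by log2 ratio among rows that reached 100 counts in either library, and, at any count, the one whose share moved most. The 5' rows of IGF2 were named by a separate rule, and other rows, such as the eighth of AFP and the third of GPC3, were chosen after their values were seen. The ratio script was tested on simulated data. Python 3.11.15, scipy 1.17.1 and pandas 2.3.3 were used, with TMM factors from edgeR 4.0.16. Other scalings, pseudocounts, count minimums, folds and row choices were tried.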

Additional observations from a re-analysis of the deposited data

How the results depend on the processing

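With 1 library per condition, differences between cultures and library batches cannot be told apart from BS008 at any depth, and leaving out a replicate was not possible. No paired analysis was possible because each condition has 1 library. The scalings moved the median log2 ratio of all rows by at most 0.05. Among the alternatives run, SPINK1 and IGF2 stayed past 2-fold, and AFP, GPC3, H19 and DLK1 stayed within it. The log2 ratios of AFP and IGF2 were -0.50 and -1.38 with TMM factors, -0.48 and -1.36 with the median of ratios, and -0.53 and -1.40 without mitochondrial rows in the total. With the median over rows in place of the sum, IGF2 was at -1.28 and SPINK1 at 1.84, and over rows with an annotated exon length IGF2 was at -1.48. No such value was possible for GPC3, whose rows of annotated length were empty. DLK1 was at -0.10 with the median over rows, against 0.01 with the sum. At 1.5-fold, 5 of the 37 member rows with at least 10 counts were higher and 10 lower. At 2-fold with a pseudocount of 0.1, 4 were higher and 7 lower. The partner genes past 2-fold higher were 1 with a pseudocount of 0.1, and those past 2-fold lower were 2 with a pseudocount of 1, where AFM stood at -0.83. Of all 131330 rows with at least 10 counts, 11471 were past 2-fold higher and 11189 lower with a pseudocount of 0.1. The counts were 3020 and 3017 of these rows with a pseudocount of 1, and 15150 and 18306 at 1.5-fold. A smaller fold or a smaller pseudocount admits more rows and genes by construction, as a smaller pseudocount moves each log2 ratio away from equality. The cause of the other shifts was not tested.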

Other observations

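A row upstream of the AFP window, from 74300187 to 74300327 on the same strand of chromosome 4 (hg19), had 0 reads in both libraries. A shorter row on the other strand of IGF2, from 2161737 to 2162177, had 3 reads under DMSO and 1 under BS008. Mitochondrial rows took 11.8% of all counts under DMSO and 13.1% under BS008, which enters the totals that scale each gene.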
